A study of Danio rerio with 12 samples.

Results

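The genes described here were 52 genes of mitosis and cytokinesis, chosen by name: the mitotic cyclins and their kinase, the other mitotic kinases, the spindle checkpoint, the kinetochore, the mitotic kinesins, the cytokinesis machinery, condensin and their partners. The choice was made with earlier results of these data known. All 52 were found by gene name among the 37055 genes of the table. Of these, 51 were under the listed name, and knl1 was under its older name casc5, through its gene number. The eyes came from 6 lrpap1-KO and 6 wild-type (WT) zebrafish at 3 months of age. The paper describes pairs of eyeball samples, and each library is taken here as a single fish. The mutant fish belonged to a stable line carrying a homozygous frameshift that CRISPR/Cas9 had introduced into lrpap1, so every mutant library traces back to that line. The labels name no allele for the WT fish and no treatment for either genotype. Polyadenylated RNA of the whole eye was sequenced, so retina, lens, cornea, sclera, vessels and blood were measured together. More dividing cells and more RNA per dividing cell cannot be told apart in such libraries.

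The genes of mitosis are silent or nearly so in resting cells and are transcribed in a wave that begins late in S phase and peaks as the cell divides. Their products condense the chromosomes, build the spindle, hold anaphase back until every kinetochore is attached, and then cut the cell apart. In an adult fish eye most neurons no longer divide, while the ciliary marginal zone at the rim of the retina, the rod progenitors, the lens epithelium and the corneal epithelium still hold dividing cells, as can blood-borne cells.

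Each library had between 7996647 and 9780310 counts in lrpap1-KO eyes, against 7988538 to 9829112 counts in WT eyes. The targeted gene, lrpap1, lies on chromosome 1 of GRCz11 from 41131526 to 41141443. It averaged 18.9 ± 2.14 CPM in lrpap1-KO eyes and 27.1 ± 3.82 CPM in WT eyes (SD, n = 6 each). That is a difference of -0.52 on the log2 scale (SE 0.11, edgeR adjusted p = 0.0108). CPM relates the count of a gene to the TMM-scaled total of its library. WT fish 3 stood apart, with crystallins, the lens proteins, at 0.132% of its TPM, against 12.4% to 20.4% in the other 11 libraries. The number of these genes past the call and the marker sums whose WT range it sets are given without it as well.

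Mitotic expression was higher in lrpap1-KO eyes: the mean CPM was above that of WT eyes for 49 of the 52 genes. The filter on low counts passed 41 of them, and 24 of these rose, with an edgeR adjusted p under 0.05 and a log2 fold change over 1. By the same rule 3.68% of the 18984 genes tested rose. A single member, ccnb3, fell, where 0.874% of all genes tested fell, and the other 16 did not pass. With the fold change set aside, 26 members were higher at an adjusted p under 0.05, against 6.92% of all genes. The median log2 fold change of the 41 was 1.34, and that of all genes tested was -0.02. The plot of log2 fold changes by role shows that every role but the transcription factor held at least 1 gene that rose.

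**Figure D1:**
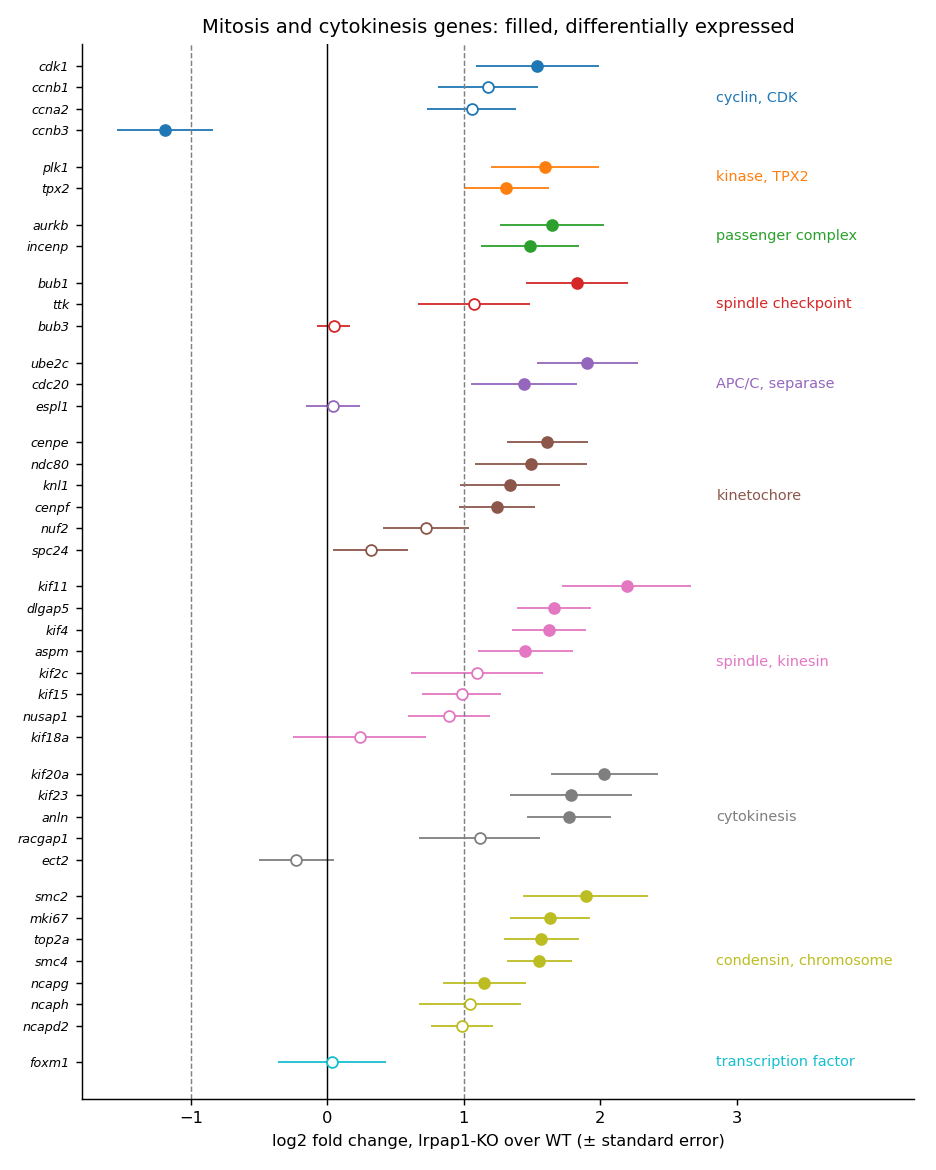
Log2 fold change, lrpap1-KO over WT, of the 41 members that passed the filter, grouped by role, with bars of 1 SE, filled where past the call and dashed lines at the fold threshold. The 24 that rose lie between 1.15 and 2.19, and ccnb3 lies at -1.19.

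The filter keeps a low gene if it is high enough in either genotype, so counts over the genes it kept lean towards change. Of the 41, 17 reached the filter's level of 1.09 CPM in every WT fish, and 18 reached it in every lrpap1-KO fish without reaching it in every WT fish. A fit of every gene with at least 1 count took in all 52 members. There, 29 of the 52 rose, where 3.30% of 27721 genes rose by the same rule. None fell in that edgeR fit, with 1 lower at an unadjusted p under 0.05 and 1 that fell in DESeq2. The log2 fold change was positive in 50 of the 52, against 50.7% of all genes in that fit. The median over the 52 was 1.40. A split by mean level over all 12 fish gave a like share. Of the 31 members with a mean of at least 2 CPM, 22 rose, against 3.22% of the 17538 genes at that level. The higher mutant levels add to that mean, so members under 2 CPM in WT eyes, such as bub1 (1.47 CPM), could enter. This split is therefore not free of the same lean.

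Summed over the 52 genes, expression separated the genotypes completely. The sum was 171, 285, 173, 136, 103 and 116 TPM in lrpap1-KO fish 1 to 6, against 74.9, 61.4, 65.5, 74.9, 77.2 and 71.3 TPM in WT fish 1 to 6. TPM divides a count by the length of its gene, so it can be added and compared across genes. Every mutant fish lay above every WT fish, and the ratio of the means was 2.31. As a share of all counts these genes were scarce, at 0.0149% to 0.0473% in lrpap1-KO eyes and 0.00884% to 0.0123% in WT eyes. In this sum the 6 mutant fish spread far more widely than the 6 WT fish, whose sums lay close together, and WT fish 3 lay within the WT range. Single genes differed less in spread. The SD as a share of the mean CPM had a median of 44.3% in lrpap1-KO eyes and 40.5% in WT eyes, and was larger in lrpap1-KO eyes for 29 of the 52.

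**Figure D2:**
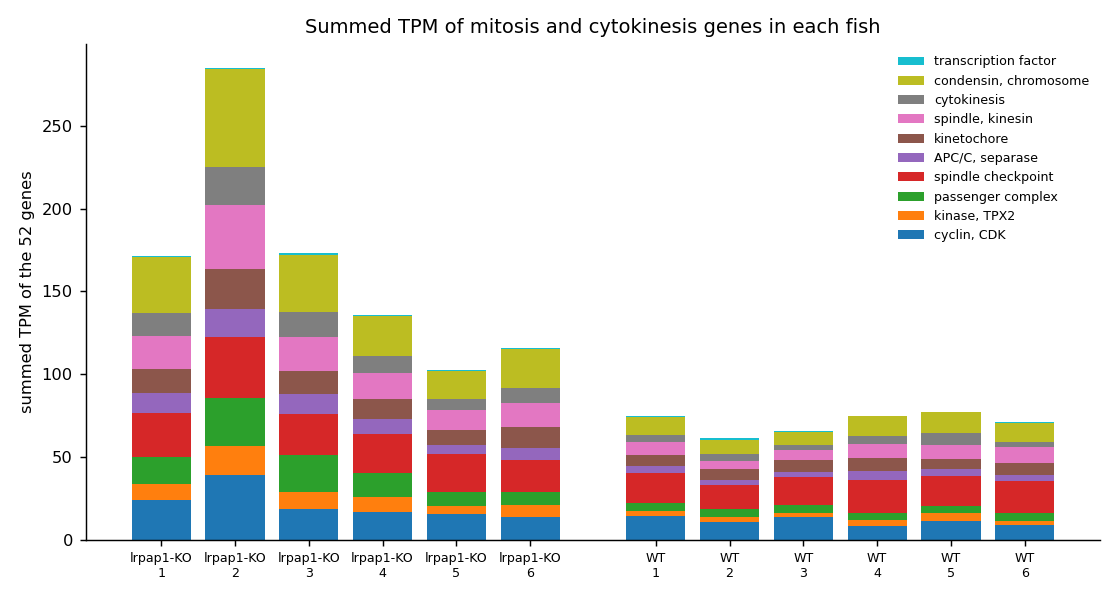
Summed TPM of the 52 genes in each fish, lrpap1-KO at the left and WT at the right, each bar stacked by the role of the genes. The mutant fish range between 103 and 285 TPM and the WT fish between 61.4 and 77.2 TPM.

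The spread among mutant fish was shared by the genes. Fish 2 was the highest of all 12 fish for 39 of the 52 genes, and fish 5 was the lowest of the mutants for 27. Relative to the WT mean of each tested gene, the median over the 41 was 2.85, 4.44, 2.56, 2.08, 1.28 and 1.84 in lrpap1-KO fish 1 to 6. Fish 2 exceeded every WT fish for 37 of the 41 genes and fish 5 for 12. For these counts by single fish the matching share of all genes is not given here. In WT fish the median lay between 0.809, in fish 3, and 1.1, in fish 1. Each mutant fish thus had a median above every WT fish, but by different amounts, and fish 5 sat nearest to WT.

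**Figure D3:**
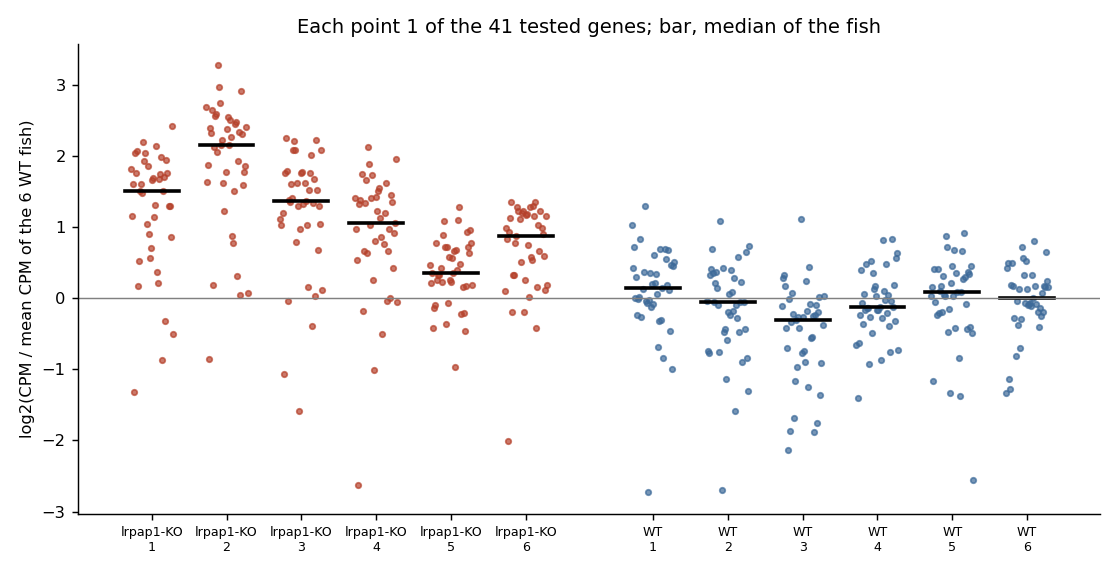
Log2 of the ratio of CPM to the WT mean for each of the 41 tested members in each fish, lrpap1-KO at the left, with the median of each fish as a bar. The median ratio, on a linear scale, is 4.44 in mutant fish 2, 1.28 in mutant fish 5 and 0.809 in WT fish 3.

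Many single genes nonetheless overlapped between genotypes. For 8 of the 41 tested members the lowest mutant fish lay above the highest WT fish, where 3.69% of all genes tested did so. These were bub1, ube2c, cenpe, kif4, dlgap5, kif20a, smc4 and ncapd2. A further 5 of the untested members were separated in the same way, which made 13 of the 52, where 2.93% of the 27721 genes with at least 1 count did so. None was separated in the other direction. Without mutant fish 5, which lay nearest to WT, 20 of the 41 did not overlap, against 4.71% of all genes tested. Leaving out a fish cannot lower such a number.

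By mean TPM over all 12 fish, which weighs the higher mutant levels most, the leading members were bub3, mki67, cdk1, top2a and incenp, and lrpap1-KO eyes gave the same order. In WT eyes bub3 was followed by ccnb3 (3.29 TPM), spc24 (2.59 TPM), mki67, nusap1 (2.46 TPM) and cdk1. The checkpoint protein bub3 was at 17.0 TPM in lrpap1-KO eyes and 15.2 TPM in WT eyes on average. It also works outside mitosis, in mRNA splicing. The other 4 stood at 8.46, 7.36, 6.57 and 5.69 TPM (mki67, cdk1, top2a, incenp) in lrpap1-KO eyes, against 2.47, 2.30, 2.04 and 1.84 TPM in WT eyes.

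The engine of mitosis is Cdk1 bound to a B-type cyclin. Its gene, cdk1, on chromosome 17 from 20923691 to 20929461, ranged between 1.93 and 11.6 CPM with a median of 4.34 CPM in lrpap1-KO eyes, against 0.721 to 3.70 CPM with a median of 1.72 CPM in WT eyes. Mutant fish 5 and 6 lay within the WT range, whose top was set by WT fish 1. The difference on the log2 scale was 1.54 (SE 0.45, edgeR adjusted p = 0.0425). This call was among the least stable: it was lost on leaving out any of mutant fish 1, 2, 3 and 4 or WT fish 2, 3, 4, 5 and 6, with adjusted p between 0.0525 and 0.108 in those 9 fits.

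Of the cyclins that were tested, ccnb1 and ccna2 lay close to the threshold and ccnb3 fell. Cyclin B1, the main partner of Cdk1, is encoded by ccnb1 on chromosome 5 from 54711393 to 54714749. It had 2.05 to 5.84 CPM with a median of 3.26 CPM in lrpap1-KO eyes, against 0.719 to 2.64 CPM with a median of 1.52 CPM in WT eyes, a log2 fold change of 1.18 that missed the threshold (SE 0.37, edgeR adjusted p = 0.0525). Cyclin A2, encoded by ccna2 and active from S phase on, was likewise just outside (log2 fold change 1.06, edgeR adjusted p = 0.0510). The genotypes overlapped in both genes, with mutant fish 4 and 5 inside the WT range for ccnb1 and fish 5 inside it for ccna2. Both passed the call in DESeq2 (adjusted p = 0.0210 for ccnb1 and 0.0230 for ccna2), in limma (0.0470 and 0.0413), with library size only and without crystallin genes.

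The exception was ccnb3, a B-type cyclin known in several animals for its part in meiosis, on chromosome 7 from 22981962 to 23004700. It ranged between 0.516 and 2.39 CPM with a median of 1.39 CPM in lrpap1-KO eyes, against 1.44 to 4.21 CPM with a median of 3.37 CPM in WT eyes. WT fish 6 was the only WT fish within the mutant range. The log2 fold change was -1.19 (SE 0.35, edgeR adjusted p = 0.0428). The call held only on leaving out mutant fish 5 or WT fish 6, and the other 10 leave-one-out fits gave adjusted p between 0.0584 and 0.0901. In the fit without the filter ccnb3 did not pass either (edgeR adjusted p = 0.0546).

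Polo-like kinase 1, which drives centrosome maturation and mitotic entry, is encoded by plk1 on chromosome 1 from 9153187 to 9161695. It had 1.36 to 7.88 CPM with a median of 4.42 CPM in lrpap1-KO eyes, against 0.618 to 2.00 CPM with a median of 1.64 CPM in WT eyes. Only mutant fish 5 lay within the WT range. On the log2 scale plk1 rose by 1.59 (SE 0.39, edgeR adjusted p = 0.0192). The gene tpx2, whose product activates Aurora A on spindle microtubules, rose by 1.31 on the log2 scale (SE 0.31, edgeR adjusted p = 0.0165), at 6.23 ± 2.77 CPM in lrpap1-KO eyes and 2.50 ± 0.892 CPM in WT eyes (SD, n = 6 each).

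The chromosomal passenger complex corrects faulty attachments and later directs the cleavage furrow. Its kinase Aurora B is encoded by aurkb on chromosome 14 from 241461 to 246396, which had 1.02 to 5.45 CPM with a median of 3.27 CPM in lrpap1-KO eyes, against 0.670 to 1.76 CPM with a median of 0.982 CPM in WT eyes. Again mutant fish 5 alone lay within the WT range. Its log2 fold change was 1.65 (SE 0.38, edgeR adjusted p = 0.0140). The scaffold incenp rose by 1.49 on the log2 scale (SE 0.36, edgeR adjusted p = 0.0181), with 3.07 to 17.1 CPM and a median of 8.21 CPM in lrpap1-KO eyes, against 1.66 to 4.00 CPM and a median of 3.23 CPM in WT eyes. The remaining subunits, survivin (birc5a) and borealin (cdca8), were below the filter.

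In the spindle checkpoint, which holds anaphase until every kinetochore is attached, bub1 rose while bub3 and ttk did not pass. The kinase gene bub1, on chromosome 20 from 2609973 to 2641270, had 2.50 to 9.15 CPM with a median of 5.00 CPM in lrpap1-KO eyes, against 0.335 to 2.06 CPM with a median of 1.67 CPM in WT eyes. All 6 mutant fish were above all 6 WT fish. This was a log2 fold change of 1.83 (SE 0.37, edgeR adjusted p = 0.00733). By contrast bub3 had a log2 fold change of 0.05 (SE 0.12, edgeR adjusted p = 0.843), at 11.5 ± 1.57 CPM in lrpap1-KO eyes and 11.1 ± 0.933 CPM in WT eyes (SD, n = 6 each). The kinase gene ttk, which starts the checkpoint signal, did not pass at a log2 fold change of 1.07 (edgeR adjusted p = 0.107).

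Exit from mitosis runs through the anaphase-promoting complex (APC/C), a ubiquitin ligase. Its dedicated E2 enzyme is encoded by ube2c, on chromosome 6 from 55287823 to 55297274, which had 1.48 to 4.66 CPM with a median of 3.52 CPM in lrpap1-KO eyes, against 0.353 to 1.35 CPM with a median of 0.850 CPM in WT eyes. The genotypes did not overlap, and the log2 fold change was 1.91 (SE 0.37, edgeR adjusted p = 0.00546). The activator cdc20 rose by 1.44 on the log2 scale (SE 0.39, edgeR adjusted p = 0.0301), at 3.46 ± 2.16 CPM in lrpap1-KO eyes and 1.27 ± 0.408 CPM in WT eyes (SD, n = 6 each). That call was lost without mutant fish 1 or 2 or WT fish 1, 3 or 6, at adjusted p between 0.0525 and 0.0705. The gene of separase, espl1, which cuts cohesin at anaphase, did not pass at a log2 fold change of 0.04 (edgeR adjusted p = 0.920).

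At the kinetochore, where chromosomes meet microtubules, 4 of the 6 tested genes rose. The motor gene cenpe, on chromosome 1 from 259991 to 296057, had 5.69 to 25.5 CPM with a median of 12.9 CPM in lrpap1-KO eyes, against 3.69 to 4.70 CPM with a median of 4.29 CPM in WT eyes. WT fish were tightly grouped and every mutant fish lay above them. Its log2 fold change was 1.61 (SE 0.30, edgeR adjusted p = 0.00414). The large coiled-coil protein gene cenpf rose by 1.24 on the log2 scale (SE 0.28, edgeR adjusted p = 0.0122), at 9.17 ± 4.19 CPM in lrpap1-KO eyes and 3.89 ± 0.830 CPM in WT eyes (SD, n = 6 each).

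The microtubule-binding network of the kinetochore gave less stable calls. The scaffold knl1, on which Bub1 docks, had a log2 fold change of 1.34 (SE 0.37, edgeR adjusted p = 0.0319), at 2.69 ± 0.578 CPM in lrpap1-KO eyes and 1.06 ± 0.631 CPM in WT eyes (SD, n = 6 each). It lost the call without mutant fish 1, 2 or 3 or WT fish 2, 3 or 4, at adjusted p between 0.0501 and 0.0705. The gene ndc80, whose product grips the microtubule, had a log2 fold change of 1.49 (SE 0.41, edgeR adjusted p = 0.0323), at 2.50 ± 1.40 CPM in lrpap1-KO eyes and 0.888 ± 0.144 CPM in WT eyes (SD, n = 6 each). Mutant fish 5, at 0.455 CPM, lay below every WT fish for this gene, and the call was lost without mutant fish 1, 2 or 3 or WT fish 1, 2, 3, 4 or 6, at adjusted p between 0.0508 and 0.0799. Its partners nuf2 (log2 fold change 0.73) and spc24 (0.32) did not pass, at edgeR adjusted p of 0.153 and 0.498.

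Among spindle genes, kif11 had the highest log2 fold change of the 41 tested members. It encodes the kinesin that pushes spindle poles apart, on chromosome 17 from 19479468 to 19497163, and had 3.30 to 17.2 CPM with a median of 7.67 CPM in lrpap1-KO eyes, against 0.558 to 4.36 CPM with a median of 1.45 CPM in WT eyes. WT fish 1 reached the level of the lower mutants, and the other WT fish lay below all 6 mutants. Its log2 fold change was 2.19 (SE 0.47, edgeR adjusted p = 0.00981).

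The chromokinesin gene kif4, on chromosome 21 from 44737594 to 44772729, had 3.75 to 10.7 CPM with a median of 7.33 CPM in lrpap1-KO eyes, against 1.64 to 3.40 CPM with a median of 2.07 CPM in WT eyes, without overlap. The log2 fold change was 1.63 (SE 0.27, edgeR adjusted p = 0.00229). The gene dlgap5, whose product bundles microtubules near the chromosomes, had 3.64 to 8.96 CPM in lrpap1-KO eyes, against 1.12 to 2.29 CPM in WT eyes, also without overlap (log2 fold change 1.66, SE 0.27, edgeR adjusted p = 0.00196). The spindle pole gene aspm rose by 1.45 on the log2 scale (SE 0.35, edgeR adjusted p = 0.0175), at 8.62 ± 4.56 CPM in lrpap1-KO eyes and 3.17 ± 0.966 CPM in WT eyes (SD, n = 6 each).

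The other 4 spindle genes did not pass the call. The kinesin gene kif15 had an adjusted p of 0.0423 in edgeR but a log2 fold change of 0.98, and passed the call in 6 of 21 alternative settings. The log2 fold change was 0.89 for nusap1, a microtubule bundler (edgeR adjusted p = 0.0677), and 0.24 for kif18a, which limits the swing of chromosomes (0.802). For kif2c, a microtubule depolymerase, the linear fold was 2.14 (edgeR adjusted p = 0.159).

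Cytokinesis genes included some of the larger differences. The kinesin gene kif20a, on chromosome 21 from 34879268 to 34926619, carries the passenger complex to the midzone. It had 3.19 to 11.8 CPM with a median of 5.64 CPM in lrpap1-KO eyes, against 0.670 to 3.17 CPM with a median of 1.35 CPM in WT eyes. The genotypes were separated by a narrow gap, between mutant fish 5 and WT fish 2. The log2 fold change was 2.03 (SE 0.39, edgeR adjusted p = 0.00526).

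Anillin, which anchors the contractile ring, is encoded by anln on chromosome 19 from 35433155 to 35450676. It had 3.19 to 12.7 CPM with a median of 7.99 CPM in lrpap1-KO eyes, against 1.56 to 3.59 CPM with a median of 2.07 CPM in WT eyes, and only mutant fish 5 was within the WT range (log2 fold change 1.77, SE 0.31, edgeR adjusted p = 0.00274). The centralspindlin motor kif23 rose by 1.78 on the log2 scale (SE 0.45, edgeR adjusted p = 0.0204), at 5.28 ± 2.90 CPM in lrpap1-KO eyes and 1.52 ± 0.875 CPM in WT eyes (SD, n = 6 each), and lost the call without mutant fish 2 (adjusted p = 0.0550). Its partner racgap1 had a log2 fold change of 1.12 that did not pass (edgeR adjusted p = 0.119). The RhoA exchange factor gene ect2, which triggers furrowing, stood at -0.23 (edgeR adjusted p = 0.643).

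Chromosome structure genes gave 5 that rose among 7. The nuclear antigen mki67, which coats mitotic chromosomes and is the usual histological marker of cycling cells, lies on chromosome 12 from 10367829 to 10381100. It had 14.1 to 55.7 CPM with a median of 26.5 CPM in lrpap1-KO eyes, against 5.70 to 14.5 CPM with a median of 9.36 CPM in WT eyes. Mutant fish 5 lay just under WT fish 1, and the remaining fish did not overlap. The log2 fold change was 1.63 (SE 0.29, edgeR adjusted p = 0.00356).

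DNA topoisomerase II alpha, which untangles sister chromatids, is encoded by top2a on chromosome 12 from 10706772 to 10740236. It had 7.39 to 32.8 CPM with a median of 18.4 CPM in lrpap1-KO eyes, against 5.25 to 8.62 CPM with a median of 5.78 CPM in WT eyes. Mutant fish 5 was again the only one within the WT range (log2 fold change 1.57, SE 0.28, edgeR adjusted p = 0.00319).

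Condensin folds chromosomes for division, and its core ATPase smc4, on chromosome 15 from 1534625 to 1573130, had 5.58 to 14.5 CPM with a median of 7.97 CPM in lrpap1-KO eyes, against 2.57 to 3.80 CPM with a median of 2.76 CPM in WT eyes. No mutant fish overlapped the WT range (log2 fold change 1.55, SE 0.24, edgeR adjusted p = 0.00136, the lowest of the 41). The partner ATPase gene smc2 rose by 1.89 on the log2 scale (SE 0.46, edgeR adjusted p = 0.0176), at 9.78 ± 5.91 CPM in lrpap1-KO eyes and 2.64 ± 1.56 CPM in WT eyes (SD, n = 6 each). The condensin I subunit gene ncapg rose by 1.15 (SE 0.31, edgeR adjusted p = 0.0272), at 6.32 ± 2.05 CPM in lrpap1-KO eyes and 2.86 ± 1.25 CPM in WT eyes (SD, n = 6 each), and lost the call without mutant fish 1, 2 or 3 or WT fish 4 (adjusted p 0.0527 to 0.0683). A further subunit gene, ncapd2, did not overlap between genotypes and passed the p threshold, but its log2 fold change of 0.99 was just under 1 (edgeR adjusted p = 0.0135). In 12 of 21 alternative settings ncapd2 passed the call. One of them was the fit without WT fish 3 (log2 fold change 1.004, edgeR adjusted p = 0.0219). For ncaph the log2 fold change was 1.04 and the edgeR adjusted p was 0.0854.

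The transcription factor gene foxm1, which in mammals drives many of these genes late in the cycle, lies on chromosome 4 from 5807939 to 5831531. It had 0.848 to 1.36 CPM with a median of 1.28 CPM in lrpap1-KO eyes, against 0.205 to 2.00 CPM with a median of 1.28 CPM in WT eyes. The mutant range lay inside the WT range, and the log2 fold change was 0.03 (SE 0.39, edgeR adjusted p = 0.968). With an SE of this size a moderate difference was not detectable.

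**Figure D4:**
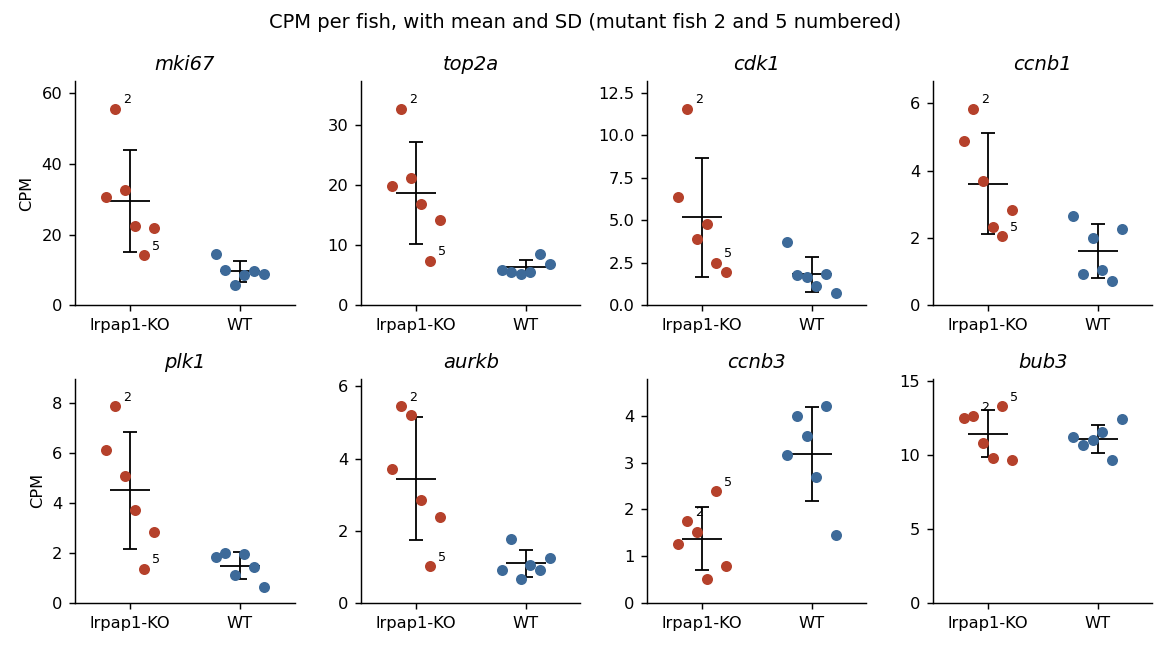
CPM in each fish of mki67, top2a, cdk1, ccnb1, plk1, aurkb, ccnb3 and bub3, lrpap1-KO at the left and WT at the right in every panel, with the mean and SD (n = 6 each) as bars and mutant fish 2 and 5 numbered. Mutant fish 2 is the highest point of the first 6 genes, while ccnb3 is lower in the mutants and the means of bub3 lie close together.

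The filter left out 11 members: ccnb2, aurka, bub1bb, mad2l1, prc1b, birc5a, cdca8, spc25, pttg1, cks1b and cks2. None had more than 38 counts in any library. In the fit without the filter, 4 of these rose. The Aurora A gene aurka, which builds the spindle poles, had 0.848 to 2.14 CPM in lrpap1-KO eyes, against 0.132 to 0.411 CPM in WT eyes (log2 fold change 2.04, edgeR adjusted p = 0.00638). The passenger subunit gene cdca8 had a log2 fold change of 2.34 (edgeR adjusted p = 0.00781), and birc5a had 1.54 (0.0247). The midzone crosslinker prc1b had 1.85 (0.0118). All 4, with the checkpoint gene bub1bb, had every mutant fish above every WT fish. The checkpoint gene mad2l1 had a log2 fold change of 2.04 that just missed (edgeR adjusted p = 0.0519), as did bub1bb (1.73, 0.0632). Securin (pttg1), which holds separase back, had 1.19 (0.318), and the Cdk1-binding proteins cks1b and cks2 had 0.92 (0.203) and 1.21 (0.200). Cyclin B2 (ccnb2, 0.04) and the Ndc80 complex subunit spc25 (0.02) had log2 fold changes near 0.

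The calls depended on which fish were in the fit. Without mutant fish 2, 18 members rose, where 3.09% of all genes tested did. Without WT fish 3, 23 rose, 20 of them among the 24, and 3.53% of all genes did. Without both, 12 rose, all of them among the 24, and 2.72% of all genes did, a setting chosen after the data had been seen. Those 12 were bub1, ube2c, cenpe, incenp, kif11, kif4, dlgap5, kif20a, anln, top2a, mki67 and smc4. The 24 calls split into 18 that held on leaving out each of the 12 fish in turn and 6 that did not (cdk1, cdc20, knl1, ndc80, kif23 and ncapg).

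The rest of the cell cycle was read from further lists of genes. Of 72 other mitosis genes, 66 were in the table and 38 passed the filter. There were 7 that rose (18.4% of the 38, against 3.68% of all genes tested), and the median log2 fold change of the 38 was 0.28. None fell in edgeR or DESeq2, and 0 were lower at an unadjusted p under 0.05. Those that rose were cdc25b, the phosphatase that activates Cdk1 (log2 fold change 1.59, edgeR adjusted p = 0.000855), the inner kinetochore gene cenpi (1.64), the kinesin genes kifc1 (1.19) and kif20ba (2.68 as a linear fold), the spindle pole gene tacc3 (1.21), the checkpoint gene kntc1 (1.19) and cdca3 (1.16), which marks the mitotic inhibitor Wee1 for destruction in frog. The number was 3 without mutant fish 2, 4 without WT fish 3, 11 without mutant fish 5 and 1 without mutant fish 2 and WT fish 3 together. Summed over the 66 genes, expression separated the genotypes here too, at 408.7 to 531.8 TPM in lrpap1-KO eyes and 332.1 to 402.3 TPM in WT eyes. Of the 38 tested, 3 had every mutant fish above every WT fish, against 3.69% of all genes tested, and 0 the reverse.

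Of 46 genes of S phase, 41 passed the filter and 6 rose (14.6% of the 41, against 3.68% of all genes tested). The median log2 fold change of the 41 was 0.45. None fell in edgeR or DESeq2, and 1 was lower at an unadjusted p under 0.05. Those that rose were mcm3 (1.02) and mcm4 (1.19), subunits of the replicative helicase, rrm2 (1.67) and tyms (1.21), which make DNA precursors, pole (1.17), a replicative polymerase, and chaf1a (2.30 as a linear fold), which loads histones on new DNA. The number was 3 without mutant fish 2 or 3 or without WT fish 4, and 1 without mutant fish 2 and WT fish 3 together. For 8 of the 41 tested S phase genes every mutant fish lay above every WT fish, the same number as for the members. None showed the reverse, and 3.69% of all genes tested had the mutants above. The S phase sums overlapped, at 330.9 to 454.6 TPM in lrpap1-KO eyes and 278.2 to 340.2 TPM in WT eyes. WT fish 3 alone set that overlap: without it the WT sums reached 317.7 TPM, below every mutant fish. In CPM, over all fish, the sums also overlapped, at 317.9 to 425.9 in lrpap1-KO eyes and 263.2 to 331.7 in WT eyes. Of 33 regulators of G1 and of exit from the cycle, 27 passed the filter, with a median log2 fold change of -0.03. A single gene rose, e2f8, a repressor of the E2F family (1.76, edgeR adjusted p = 0.00508), which is 3.70% of the 27, close to the share of all genes. None fell in edgeR or DESeq2, while 1 was lower at an adjusted p under 0.05 and 2 at an unadjusted p under 0.05. These lists were not tested against each other.

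**Figure D5:**
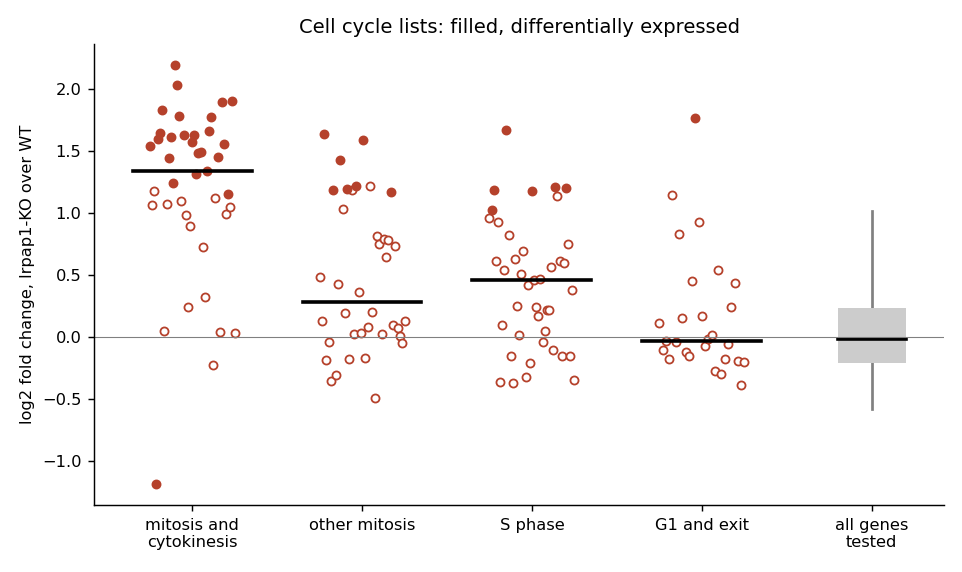
Log2 fold change, lrpap1-KO over WT, of every tested gene of the members, the other mitosis genes, the S phase genes and the G1 and exit regulators, with the median of each list as a bar, filled points for genes past the call, and at the right the middle 50% (box), the range between the 5th and 95th percentiles (line) and the median of all genes tested. The medians of the lists are 1.34, 0.28, 0.45 and -0.03.

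Markers of several cell types moved with the genotype too. By the same call 3.68% of all genes tested rose and 0.874% fell. Of the 16 T and B lymphocyte markers in the table, 7 passed the filter, which leans towards change. Of these 7, 4 rose (57.1%, cd4-1, zap70, ptprc and coro1a), against 3.68% of all genes tested. In DESeq2, fitted to all 16 without that filter, 6 rose, where 4.03% of 27721 genes rose. The list summed to 41.8 to 89.5 TPM in lrpap1-KO eyes, against 21.0 to 49.5 TPM in WT eyes. Whether its genes mark lymphocytes alone, and not other leukocytes, was not tested. Of the 17 tested macrophage and microglia markers, 7 (41.2%) rose. Their sums were 1118 to 2382 TPM in lrpap1-KO eyes, against 647 to 1632 TPM in WT eyes. The neutrophil list had 1 of 7 that rose, with sums of 23.4 to 108 TPM in lrpap1-KO eyes and 11.2 to 41.8 TPM in WT eyes.

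The ocular surface epithelium, which divides throughout life, gave 5 of 16 tested markers that rose (krt4, epcam, evpla, ppl and dsc2l), against 3.68% of all genes tested. This list had sums of 12982 to 24417 TPM in lrpap1-KO eyes and 9848 to 20219 TPM in WT eyes (up to 19379 TPM without WT fish 3). Of 19 retinal progenitor markers none passed the call in edgeR or DESeq2, while 10 were lower in lrpap1-KO eyes at an unadjusted p under 0.05, 4 of them also at an adjusted p under 0.05. Over all genes, 810 of the 18984 tested were lower at an adjusted p under 0.05 in edgeR. The number over all genes at an unadjusted p is not given here, for this or any other list. The progenitor markers summed to 1644 to 1933 TPM in lrpap1-KO eyes, against 2067 to 2508 TPM in the WT eyes other than WT fish 3, which was at 1363 TPM. In CPM every mutant fish, at 1330 to 1548, lay below every WT fish, at 1584 to 2077. None of 21 lens markers passed the call in edgeR or DESeq2, and 1 was lower at an unadjusted p under 0.05, with sums of 12829 to 15805 TPM in lrpap1-KO eyes and 197 to 23773 TPM in WT eyes, the lowest from WT fish 3 (14098 to 23773 TPM without it). The photoreceptor markers, which define the tissue, summed to 42661 to 59210 TPM in lrpap1-KO eyes and 39399 to 66896 TPM in WT eyes (up to 56209 TPM without WT fish 3). Of the 22, 7 were lower at an unadjusted p under 0.05 in edgeR, without a number over all genes beside it. A single one of these fell, where 0.874% of all genes tested fell. None of 10 tested markers of retinal pigment epithelium and pigment passed the call in edgeR or DESeq2, with 1 lower at an adjusted p under 0.05 and 1 higher at an unadjusted p under 0.05. Of the 9 erythrocyte, 15 endothelium and 13 skeletal muscle markers tested, 2, 1 and 1 fell in edgeR, against 0.874% of all genes tested. In DESeq2, fitted without that filter, 2, 1 and 2 fell, and 1 erythrocyte marker rose. No marker found in the table was at 0 in every fish. The part of these cell types in the higher mitotic expression was not tested.

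The 52 genes were spread over 22 chromosomes. The closest pair was ndc80 and mki67 on chromosome 12, which lie 1859 bases apart on the same strand. The sources used here do not say whether reads were counted by strand. The models of kif20a, nusap1, dlgap5 and ncapg overlap a gene on the opposite strand by 5, 47, 216 and 12 bases, which are cdc23, ndufaf1, rsph10b and lcorl. Reads in such stretches could not be assigned to either gene with certainty.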

How the data were processed

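RNA of the eyeballs of 6 lrpap1-KO and 6 WT zebrafish was analysed, with genotype and replicate number taken from the labels. The authors aligned reads to GRCz11 with HISAT2 2.1.0 and deposited counts per gene. The program that counted them and the use of strand are not given in the sources used here. The deposited TPM values, which the authors derived from these counts and the gene lengths, were used for sums and for levels between genes. The members and lists were chosen with earlier results of these data known.

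Counts were fitted over all genes in R 4.3.3 with edgeR 4.0.16 (filterByExpr, TMM, quasi-likelihood test, with a term for genotype alone), with Benjamini-Hochberg adjustment over the 18984 genes tested. A call needed an adjusted p under 0.05 together with a log2 fold change above 1 in size. Standard errors come from the test's F statistic. Of 52 members, 41 were tested, and low counts limit the rest. DESeq2 1.42.0, limma 3.58.1 (voom with sample weights), other scalings and filters, the replicate number as a block and each library left out in turn were alternatives. The tests were checked on simulated data.

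Named genes were lrpap1, all members, and, of the other cell cycle lists, genes past the call. The lymphocyte and epithelial markers past the call, and genes that overlap a member, were named after their values were seen. Promoter motifs were not analysed here. The p-values set the difference between genotypes against the spread among fish within each genotype. All mutant fish come from a single line, so effects of that line cannot be told apart from those of the genotype.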

Additional observations from a re-analysis of the deposited data

Results flagged for a closer look

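In groups of 6 fish, a value was singled out when its gap to the nearest other fish took up more than 0.625 of the range of its group. Of 136 groups checked, 13 held such a value, where chance singles out about 1 in 20 groups of normally distributed values. Genes at low counts need not follow that distribution, and genes that move together give groups that are not independent. The 13 were not tested against that rate. Mutant fish 2 was far above the other mutants for cdc20 (7.50 CPM, the next 3.60), kif11 (17.2 CPM, the next 8.16), nusap1 (9.05 CPM, the next 5.20) and dlgap5 (8.96 CPM, the next 5.53), and for the summed TPM of the other mitosis genes (531.8 TPM, the next 446.2). Mutant fish 5 was far below the other mutants for prc1b, at 0.910 CPM with the next at 2.05 CPM. Mutant fish 6 stood above them for espl1, at 7.95 CPM with the next at 5.16 CPM.

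Among WT fish, number 1 was far below the others for aurka (0.132 CPM) and far above them for kif11 (4.36 CPM) and spc25 (1.06 CPM). For aurka this was 1 count against 3 to 4 in the other WT fish, and for spc25 8 counts against 2 to 4. WT fish 2 was far above them for kif20a (3.17 CPM) and far below for birc5a (0.235 CPM, 2 counts). WT fish 1 also had the lowest total, at 7988538 counts, where the next WT library had 9142860 counts.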

How the results depend on the processing

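The number of members that rose was 24, and it was 32 of 52 with DESeq2, 23 with limma, 24 with upper quartile scaling, 28 with library size only, 28 without crystallin genes, 29 of 52 without the filter, 14 of 17 with at least 10 counts in every library, 18 to 30 on leaving out each fish, and 12 without mutant fish 2 and WT fish 3 together, a setting chosen after seeing the data. The share of all genes tested that rose moved with the setting as well. It was 4.03% with DESeq2, 4.4% with limma, 3.66% with upper quartile scaling, 4.07% with library size only and 3.87% without crystallin genes. It was 3.30% without the filter, 2.39% with at least 10 counts, 2.83% to 5.03% on leaving out each fish and 2.72% without both fish. These shares also stand beside the other lists below. The DESeq2 numbers are out of all genes fitted, and any gene that DESeq2 left without an adjusted p counts as not called. The member that fell, ccnb3, gave 0 calls with limma, library size only, no filter and both fish left out, and 0 to 1 on leaving out each fish. It was not among the 17 members tested with at least 10 counts, where 0 fell. Members without overlap numbered 8 to 20 on leaving out each fish, against 3.96% to 5.46% of all genes. Over all genes, 698 rose and 166 fell. These numbers were 1117 and 408 with DESeq2, 914 and 324 without the filter, 390 and 74 with at least 10 counts, and 1314 and 810 at any fold change. The other mitosis genes that rose, 7, were 14 with DESeq2, 1 with both fish left out and 3 to 11 on leaving out each fish. The S phase genes that rose, 6, were 3 with at least 10 counts, 1 with both fish left out and 3 to 7 on leaving out each fish. The G1 and exit genes that rose, 1, were 2 with DESeq2, 0 with at least 10 counts and 1 to 2 on leaving out each fish. On leaving out each fish, the log2 fold change ranged over -0.069 to 0.62 for kif18a (below 0 without mutant fish 2), -0.10 to 0.14 for espl1 (below 0 without mutant fish 6) and -0.17 to 0.25 for foxm1 (-0.08 without WT fish 4, -0.17 without WT fish 5). No other of the 41 tested members changed direction, and the untested 11 were not followed. The cause was not tested.

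Replicate numbers gave no sign of pairing in expression. Deviations of same-numbered fish correlated at 0.0947, -0.0239, -0.239, -0.0472, -0.269 and 0.0126, and no mutant fish correlated best with its own number. Such correlations cannot exclude that same-numbered fish were handled together. With the replicate number as a block, 525 of the 18984 genes tested rose and 115 fell, 18 members rose and 1 fell, and the other mitosis, S phase and G1 genes that rose were 2, 3 and 1. The members that lost the call under the block were ndc80, kif23, tpx2, knl1, aspm and smc2. The SE of the members' log2 fold changes was 0.12 to 0.49, so a difference of that size was not detectable.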
